A study of Mus musculus with 8 samples.

Results

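The hippocampal levels of a group of miRNAs known for roles in long-term potentiation, long-term depression, spine size or seizure control were compared between BTBR and B6 mice. The group was given by name for these roles, by a rule that uses no measured value, though with earlier results of these data known: mmu-miR-135a-5p, mmu-miR-384-5p, mmu-miR-384-3p, mmu-miR-188-5p, mmu-miR-324-5p, mmu-miR-101a-3p, mmu-miR-101b-3p and mmu-miR-187-3p. Of these 8 miRNAs, 7 have counts among the 422 miRNAs of the count table, and miR-188-5p was not analysed here. The libraries came from the hippocampus, punched from brain slices, of 4 BTBR mice (BTBR T+ Itpr3tf/J) and 4 B6 mice (C57BL/6J, the control strain). All were untreated adult males of 12 weeks of age, with 1 library per mouse. BTBR is an inbred strain used as a model of idiopathic autism, so the strains differ at many loci at once and no single gene is being tested.

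A miRNA pairs with target mRNAs through its seed, bases 2 to 8 from the 5′ end, and lowers their translation or stability. At hippocampal synapses, miRNAs of this kind act on proteins that set spine size, receptor content and potassium currents, and several are regulated by neuronal activity. miR-135a-5p has been tied to spine remodelling in long-term depression, miR-384-5p and miR-188-5p to long-term potentiation, and miR-324-5p to seizures through Kcnd2, a subunit of the A-type potassium channel.

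The mature sequences are shown because the seed sets which members could share targets, and near-identical sequences could share reads. They are RefSeq sequences of GRCm38.p6, printed 5′ to 3′ with the seed in capitals, for the members present in that table, miR-188-5p included.
miR-135a-5p: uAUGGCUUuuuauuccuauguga
miR-384-5p: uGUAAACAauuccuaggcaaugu
miR-384-3p: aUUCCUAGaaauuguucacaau
miR-188-5p: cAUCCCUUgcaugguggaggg
miR-324-5p: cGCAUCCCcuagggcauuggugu
miR-101a-3p: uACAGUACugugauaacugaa
miR-101b-3p: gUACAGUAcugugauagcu
miR-30a-5p: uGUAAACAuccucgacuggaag
miR-30c-5p: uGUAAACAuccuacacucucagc
miR-30e-5p: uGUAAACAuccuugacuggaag
The seed of miR-384-5p is also that of miR-30a-5p, miR-30c-5p and miR-30e-5p, the 3 miRNAs that share it among the 367 measured miRNAs with a RefSeq sequence. Past the seed these sequences part: miR-384-5p and miR-30a-5p match at 12 of 22 aligned bases. No measured miRNA with a sequence shared the seed of any other member listed. miR-101b-3p begins 1 base earlier than miR-101a-3p, so that their seeds are shifted by 1 base and share 6 of 7 letters. Over their 18 shared bases they differ at a single position, A16G, counted from 1 at the 5′ end of miR-101a-3p. The reference lengths are 21 bases for miR-101a-3p and 19 bases for miR-101b-3p.

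miR-384-5p and miR-384-3p are the arms of 1 hairpin of 88 bases, printed below from RefSeq with both mature arms in capitals, because the balance of its arms is measured below and differed in 1 library.
Mir384: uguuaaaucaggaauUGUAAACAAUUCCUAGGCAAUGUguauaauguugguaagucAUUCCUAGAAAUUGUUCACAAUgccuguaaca
In the GENCODE M21 annotation of GRCm38, Mir384 lies at chrX:105344282-105344369 on the minus strand, outside other annotated genes. Mir188 lies at chrX:7247989-7248056 on the minus strand, in an intron of Clcn5. Mir101a, at chr4:101346945-101347027 on the minus strand, overlaps an exon of the lincRNA E130102H24Rik, and Mir101b, at chr19:29135279-29135375 on the plus strand, is in an intron of Rcl1. miR-135a-5p comes from both Mir135a-1 (chr9:106154124-106154213, plus strand) and Mir135a-2 (chr10:92072086-92072185, minus strand), so its counts cannot be assigned to 1 locus. The former is in an intron of the antisense gene D030055H07Rik and overlaps an exon of Glyctk on the opposite strand, and the latter is in an intron of the lincRNA Rmst. Mir324, at chr11:70012043-70012131 on the plus strand, overlaps an exon of Dvl2 on the same strand.

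The counts on miRNAs summed to between 2247482 and 7904990 per library, and BTBR 2 (replicate 2 of the BTBR mice) was the shallowest. This library also stood apart in composition. Its median Spearman correlation with the other libraries, across miRNAs, was 0.938, against 0.953 to 0.972 for the others. Summed levels of marker miRNAs of neurons (miR-124-3p, miR-9-5p and miR-128-3p) lay between 47800 and 76050 CPM in B6 mice and between 56560 and 66400 CPM in BTBR mice, where CPM is edgeR's depth-scaled count after TMM normalization. Oligodendrocyte markers (3 of 3 measured) lay between 2238 and 4256 CPM in B6 mice and between 2289 and 2922 CPM in BTBR mice. Markers of microglia and leukocytes (4 of 5) lay between 926 and 1082 CPM in B6 mice and between 807 and 1569 CPM in BTBR mice, with the highest value in BTBR 2. Endothelial markers (2 of 2) lay between 2719 and 3365 CPM and between 1740.0 and 3182 CPM, with the lowest value in BTBR 2. Choroid plexus markers (7 of 8) ranged from 5185 to 39750 CPM in B6, highest in B6 1, and from 5227 to 9535 CPM in BTBR mice. Red blood cell markers (4 of 4) ranged from 303 to 853 CPM in B6 mice and from 531 to 1371 CPM in BTBR mice, and 1 of them passed the test described below. No measured marker was at 0 in any library. The part of these markers in the results below was not tested.

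None of the 7 miRNAs differed between BTBR and B6 mice beyond the spread between mice. In the quasi-likelihood test of edgeR, with p-values adjusted by Benjamini-Hochberg over the 422 miRNAs and a threshold of 0.1, 0 of 7 passed, where 7 of all 422 miRNAs did (1.66%). At an unadjusted p under 0.05 the count was 0 of 7, against 46 of 422 (10.9%). DESeq2 and limma-voom also called 0 of 7. In each of the 7 the values of the strains overlapped, whereas the strains did not overlap in 28 of 422 miRNAs (6.64%). The log2 fold changes ran from −0.65 to 0.72, with 2 above 0 and 5 below, and had a median of −0.14, against 0.02 over all miRNAs. In size they were close to the rest of the table, with a median absolute log2 fold change of 0.23 for the 7 and 0.28 for all. The biological coefficient of variation, the spread between mice that edgeR estimates beyond counting error, had a median of 38.1% in the 7 and 33.7% in all miRNAs. In whole tissue, fewer cells of a type and less RNA per cell cannot be told apart.

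**Figure D1:**
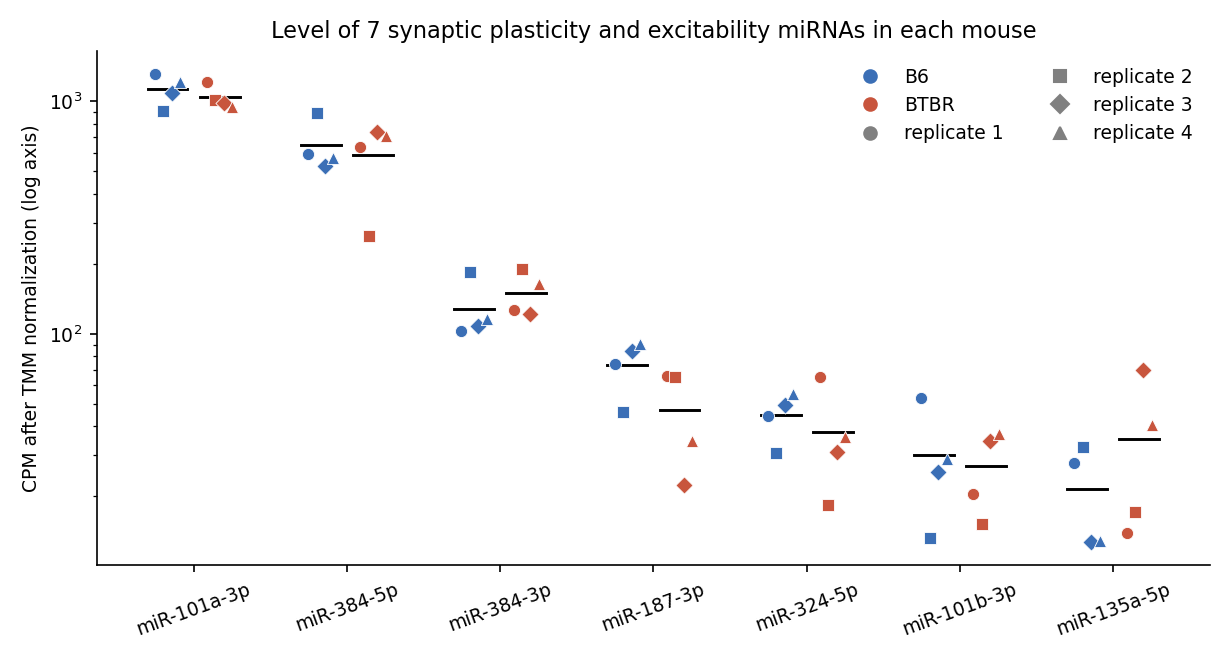
Level of each miRNA in each mouse, as CPM after TMM normalization on a log axis, with B6 in blue, BTBR in red, the replicate number as the marker shape and the mean of 4 mice as a black line. The strains overlap in all 7 miRNAs, and the BTBR 2 square lies lowest of the 8 mice for miR-384-5p (263 CPM) and miR-324-5p (18.4 CPM).

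mmu-miR-384-5p acts in the maintenance of long-term potentiation and the enlargement of spines. It had 594, 891, 528 and 572 CPM in B6 mice 1 to 4 and 637, 263, 741 and 708 CPM in BTBR mice 1 to 4. BTBR 1, 3 and 4 lay within the B6 range and BTBR 2 lay below every other mouse. The means were 646 ± 166 CPM (SD, n = 4) in B6 mice and 587 ± 221 CPM in BTBR mice, and the log2 fold change was −0.14 (standard error, SE, 0.31, 95% confidence interval −0.82 to 0.54, Benjamini-Hochberg adjusted p = 0.888 in edgeR). Without BTBR 2 the log2 fold change was 0.08, and without B6 2, the highest mouse, it was also 0.08, so the direction rests on single mice. An exact permutation test of log2(CPM + 0.5), two-sided and covering all 70 ways to assign the mice to strains, gave p = 0.743, where the smallest p possible is 0.0286.

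Its partner arm mmu-miR-384-3p had 103, 184, 109 and 116 CPM in B6 mice and 127, 189, 122 and 164 CPM in BTBR mice. BTBR 2, lowest for the 5p arm, was the highest of the 8 mice for the 3p arm, next to B6 2. The log2 fold change was 0.23 (SE 0.25, 95% confidence interval −0.32 to 0.79, Benjamini-Hochberg adjusted p = 0.780 in edgeR), with means of 128 ± 38.01 CPM in B6 mice and 151 ± 31.9 CPM in BTBR mice. It was 0.08 without BTBR 2 and 0.49 without B6 2, and the exact permutation test with all mice gave p = 0.286.

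The ratio of 5p to 3p reads within a library does not depend on normalization. It was 5.79, 4.84, 4.86 and 4.92 in B6 and 5.01, 1.39, 6.09 and 4.32 in BTBR mice. Thus 7 libraries held more than 4 reads of the 5p arm for each read of the 3p arm, and BTBR 2 did not. As a share, miR-384-5p made up 81.2% to 85.9% of the reads of both arms in those 7 libraries and 58.1% in BTBR 2 (95% Wilson interval 55.02% to 61.1%, 1007 reads). Such intervals cover counting error only. The difference between strains in the log2 ratio, −0.47, was within the spread between mice (exact permutation p = 0.514, 0.914 after Benjamini-Hochberg adjustment over 3 ratios), and it was 0.00 without BTBR 2.

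BTBR 2 also differed from the other libraries in the arm balance of other hairpins. Of 99 hairpins with counts on both arms, 34 had an arm ratio more than 1 log2 unit from the median of the libraries in BTBR 2, against 4 to 22 in the other libraries. Of the 16 hairpins with at least 100 reads on each arm in every library, 4 did so in BTBR 2 (miR-140, miR-151, miR-221 and miR-384) and 0 in each of the other libraries. The shift was toward the 3p arm for miR-384 and miR-151, with log2 deviations of −1.82 and −1.31, and toward the 5p arm for miR-140 and miR-221. BTBR 2 had the lowest depth, and its part in these shifts was not tested.

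**Figure D2:**
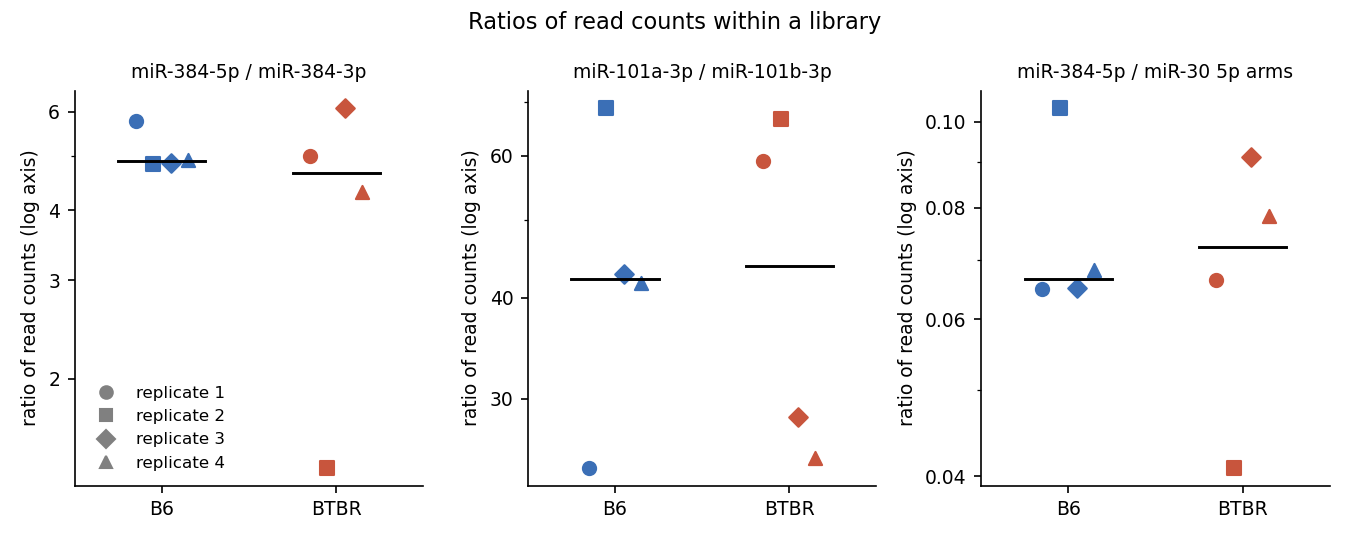
Ratios of read counts within each library on log axes, for the arms of miR-384, for miR-101a-3p over miR-101b-3p and for miR-384-5p over the summed 5p arms of miR-30a to miR-30e, with medians of 4 mice as black lines and marker shapes as replicate numbers. BTBR 2 has an arm ratio of 1.39, against 4.32 to 6.09 in the other libraries, and also the lowest ratio to miR-30, 0.0409.

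Of the 3 miRNAs found to share the seed of miR-384-5p, miR-30a-5p and miR-30c-5p had more counts than miR-384-5p, and miR-30e-5p had fewer. miR-30b-5p and miR-30d-5p are also of the miR-30 family, but no RefSeq sequence was available for them, so their seeds were not compared. miR-30b-5p, the most abundant of these 5p arms, had 4577 ± 342 CPM in B6 mice and 4491 ± 1447 CPM in BTBR mice. miR-30d-5p had 26.2 ± 5.08 and 24.8 ± 2.49 CPM. None of these miR-30 miRNAs passed the threshold in edgeR. miR-30a-5p had 2122 ± 276 CPM in B6 mice and 1923 ± 184 CPM in BTBR mice (log2 fold change −0.14, SE 0.17), and miR-30c-5p had 1842 ± 218 and 1849 ± 296 CPM (0.01, SE 0.18). miR-30e-5p had only 20 to 67 reads per library, while its other arm miR-30e-3p had 2488 to 6440. miR-30a-5p and miR-30e-5p differ at the single base C13U, so how reads were split between them is uncertain. Against the summed 5p arms of miR-30a, miR-30b, miR-30c, miR-30d and miR-30e, miR-384-5p made a ratio of 0.0649, 0.103, 0.0650 and 0.0682 in B6 and 0.0663, 0.0409, 0.0912 and 0.0784 in BTBR mice. B6 1, 3 and 4 lay close together and the BTBR mice spread to both sides of them. The log2 difference was −0.15 (exact permutation p = 0.743, 0.914 after adjustment), and it was 0.08 without BTBR 2 and 0.01 without B6 2.

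mmu-miR-135a-5p, which targets complexins and takes part in the spine changes of long-term depression, had 27.8, 32.6, 12.7 and 12.8 CPM in B6 mice and 14.0, 17.1, 70.1 and 40.4 CPM in BTBR mice. It had the largest spread of the 7: BTBR 3 and BTBR 4 lay above every B6 mouse, and the other BTBR mice lay between the lower and the higher B6 mice. The means were 21.5 ± 10.3 CPM in B6 mice and 35.4 ± 25.99 CPM in BTBR mice, with a biological coefficient of variation of 51.8%. The log2 fold change of 0.72 (SE 0.52, Benjamini-Hochberg adjusted p = 0.655 in edgeR; exact permutation p = 0.400) had a 95% confidence interval of −0.41 to 1.85, that is from 0.754-fold to 3.61-fold. It was 0.16 without BTBR 3, 0.93 without BTBR 2 and 1.03 without B6 2. The reads behind these values ranged from 38 in BTBR 2 to 336.

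mmu-miR-187-3p, which has been linked to the potassium channel TREK-2 in epilepsy, had 74.1, 46.2, 84.2 and 90.3 CPM in B6 mice and 66.2, 65.5, 22.3 and 34.8 CPM in BTBR mice. All 4 BTBR mice lay below the B6 mean of 73.7 ± 19.5 CPM, and B6 2 lay below BTBR 1 and BTBR 2, so the strains overlapped. The BTBR mean was 47.2 ± 22.2 CPM. With an unadjusted p of 0.1001, it had the smallest p of the 7 in edgeR's quasi-likelihood test and ranked 76 of 422 (log2 fold change −0.65, SE 0.36, 95% confidence interval −1.44 to 0.15, Benjamini-Hochberg adjusted p = 0.556). The exact permutation test gave p = 0.171. Leaving out 1 mouse moved the log2 fold change between −0.88 (without BTBR 2) and −0.41 (without BTBR 3). Without BTBR 2 its unadjusted p in edgeR was under 0.05, with a Benjamini-Hochberg adjusted p of 0.389. Its hairpin lies outside other annotated genes.

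Neither miR-135a-5p nor miR-187-3p passed the test between strains, but their levels were opposed from mouse to mouse. Pearson's r on log2 levels over the 8 mice was −0.925 (exact permutation p = 0.00149, 0.0313 after Benjamini-Hochberg adjustment over the 21 pairs of members) and Spearman's rho was −0.905 (exact permutation p = 0.00456, 0.0958 after adjustment). BTBR 3 and BTBR 4 had the highest levels of miR-135a-5p and the lowest of miR-187-3p, and without these 2 mice r was −0.727. Within strains r was −0.840 in the 4 B6 mice and −0.994 in the 4 BTBR mice. With 4 mice, values this large also arose in other pairs without recurring in the other strain. For miR-324-5p with miR-187-3p r was 0.995 in B6 and 0.0893 in BTBR mice. For miR-101a-3p with miR-101b-3p it was 0.970 in B6 and −0.528 in BTBR mice. With each strain centred on its own mean, a comparison added after seeing the data, r was −0.950 (exact permutation of mice within strains, 576 pairings, p = 0.00347, 0.0729 after Benjamini-Hochberg adjustment over the 21 pairs, where the smallest p possible is 0.00174). In the other 20 pairs the adjusted p of Pearson's r was 0.268 or more. The points share a joint normalization and include the shallow library BTBR 2, and the part of these in the relation was not tested.

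**Figure D3:**
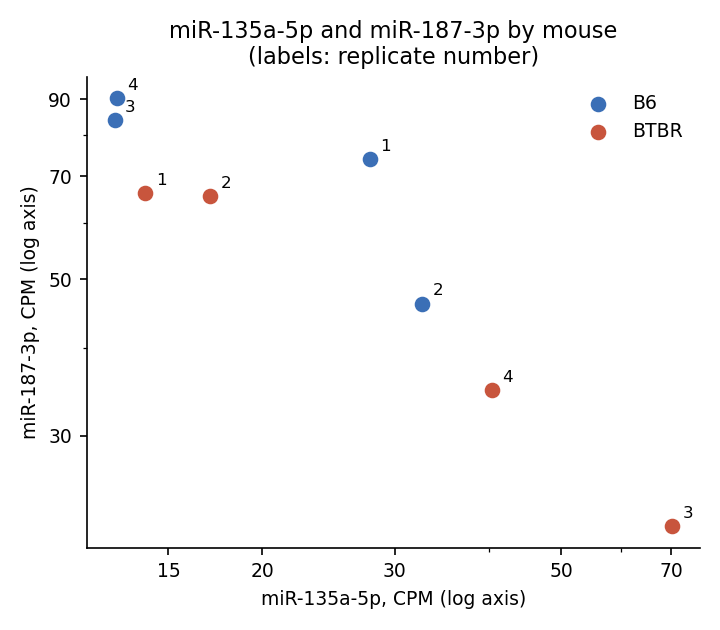
Level of miR-187-3p against that of miR-135a-5p in each mouse, both as CPM on log axes, with B6 in blue, BTBR in red and replicate numbers beside the points. The points fall from upper left to lower right (r = −0.925), and BTBR 3 and BTBR 4 form the lower right end at 22.3 and 34.8 CPM of miR-187-3p.

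mmu-miR-324-5p, which lowers Kcnd2 and whose inhibition dampens seizures in mice, had 44.1, 30.6, 49.4 and 55.3 CPM in B6 mice and 65.4, 18.4, 31.1 and 35.9 CPM in BTBR mice. BTBR mice held both the highest and the lowest of the 8 values. The means were 44.9 ± 10.5 CPM in B6 mice and 37.7 ± 19.9 CPM in BTBR mice, and the log2 fold change was −0.24 (SE 0.36, 95% confidence interval −1.03 to 0.55, Benjamini-Hochberg adjusted p = 0.822 in edgeR; exact permutation p = 0.429). It was −0.65 without BTBR 1, the highest mouse, and −0.06 without BTBR 2, the lowest, which had 41 reads.

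mmu-miR-101a-3p and mmu-miR-101b-3p belong to the miR-101 family, which limits excitability while hippocampal networks assemble and targets App and the chloride importer NKCC1. miR-101a-3p was the most abundant and the steadiest of the 7, with 1310.4, 907, 1088 and 1208 CPM in B6 mice and 1216, 1016, 986 and 943 CPM in BTBR mice. Only 1 BTBR mouse lay above the B6 mean of 1129 ± 173 CPM, yet all 4 BTBR mice were within the B6 range. Its log2 fold change was −0.12 (SE 0.19, Benjamini-Hochberg adjusted p = 0.841 in edgeR; exact permutation p = 0.486), and the 95% confidence interval of −0.52 to 0.29 was the narrowest of the 7. With counts scaled by library size only, the value was 0.05, but this scaling also raised the median log2 fold change of all 422 miRNAs by 0.13.

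mmu-miR-101b-3p was far rarer, with 34 to 309 reads per library, and had 53.2, 13.2, 25.4 and 29.0 CPM in B6 mice and 20.6, 15.3, 34.6 and 37.2 CPM in BTBR mice. B6 mice held both the highest and the lowest value. The means were 30.2 ± 16.7 CPM in B6 mice and 26.9 ± 10.6 CPM in BTBR mice, and the log2 fold change of −0.16 (SE 0.42, 95% confidence interval −1.08 to 0.77, Benjamini-Hochberg adjusted p = 0.925 in edgeR; exact permutation p = 0.886) turned to 0.20 without B6 1 and to 0.01 without BTBR 2. With scaling by library size only it was 0.06.

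The ratio of miR-101a-3p to miR-101b-3p reads was 24.6, 68.7, 42.8 and 41.7 in B6 and 59.2, 66.6, 28.5 and 25.4 in BTBR mice. It moved by more than 2-fold between mice of each strain, with no difference between the strains beyond that spread (log2 difference −0.02, exact permutation p = 0.914). The difference was 0.21 without B6 2, 0.15 without BTBR 3 and 0.21 without BTBR 4. It was −0.28 without B6 1, −0.25 without BTBR 2 and −0.20 without BTBR 1. Reads were counted only where they lay fully within the annotated coordinates, and the part of the unequal reference lengths in this ratio was not tested.

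For each member, the 3 miRNAs most alike over the 8 libraries were taken as those with the highest Pearson's r on log2 levels, as a description. miR-135a-5p varied most like miR-335-5p (r = 0.921), let-7f-2-3p (0.910) and miR-211-5p (0.874). The likeness was highest for miR-324-5p, with miR-22-3p (0.983), miR-381-3p (0.961) and miR-24-3p (0.944), and for miR-384-5p, with miR-126a-3p (0.976), miR-323-3p (0.963) and miR-376a-3p (0.948). miR-126a-3p is 1 of the 2 endothelial markers summed above. That sum was lowest in BTBR 2, as was miR-384-5p, but it holds miR-126a-3p itself and so is not separate from this likeness. Likewise, miR-211-5p is on the list of choroid plexus markers. The part of cell types in these likenesses was not tested. By contrast, miR-384-3p varied most like miR-673-3p (0.860), miR-541-5p (0.854) and miR-770-3p (0.847), so the arms of 1 hairpin shared none of these neighbours. The nearest to miR-187-3p were miR-7a-1-3p (0.935), miR-92b-5p (0.931) and miR-99b-3p (0.919). miR-101a-3p had miR-154-3p (0.844), miR-22-5p (0.836) and miR-449a-5p (0.834), and miR-101b-3p had miR-30a-5p (0.845), miR-598-3p (0.765) and miR-449a-5p (0.742), which makes miR-449a-5p the neighbour that both miR-101 miRNAs share.

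A list of 30 other miRNAs known for synaptic plasticity or excitability was read in the same fit. It had 28 with counts, of which 0 passed the threshold in edgeR, against 1.66% of all miRNAs. An unadjusted p under 0.05 was found for 2 of the 28, against 10.9% of all miRNAs. miR-34a-5p, which targets synaptic vesicle proteins, had 270.0 ± 216 CPM in B6 mice and 682 ± 178 CPM in BTBR mice (log2 fold change 1.34, SE 0.45, Benjamini-Hochberg adjusted p = 0.254 in edgeR). It did pass with DESeq2's Wald test (adjusted p = 0.0747) and, in edgeR, without B6 2 (log2 fold change 2.08, adjusted p = 0.0136). The study, also with edgeR, TMM and a cutoff of 0.1, counts miR-34a among the miRNAs raised in BTBR mice. It reported more miRNAs in all than passed in the fit used here, and the cause of this difference was not tested. miR-212-3p, the activity-regulated partner of miR-132-3p, had 99.6 ± 18.1 CPM in B6 mice and 157 ± 42.9 CPM in BTBR mice (log2 fold change 0.65, SE 0.25, Benjamini-Hochberg adjusted p = 0.345 in edgeR).

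The next smallest p belonged to miR-186-5p, which acts in homeostatic scaling of AMPA receptors. It had 1378, 1706, 1441 and 1657 CPM in B6 mice and 1173, 874, 1375 and 1232 CPM in BTBR mice. Every BTBR mouse lay below every B6 mouse, though the closest pair was only a few CPM apart (log2 fold change −0.41, SE 0.19, Benjamini-Hochberg adjusted p = 0.451 in edgeR). The strains did not overlap in 4 of the 28, against 28 of all 422 miRNAs (6.64%), the others being miR-129-5p, miR-26a-5p and miR-26b-5p. Over the list 18 log2 fold changes were above 0 and 10 below, with a median of 0.11, against −0.14 for the 7 members and 0.02 for all miRNAs.

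**Figure D4:**
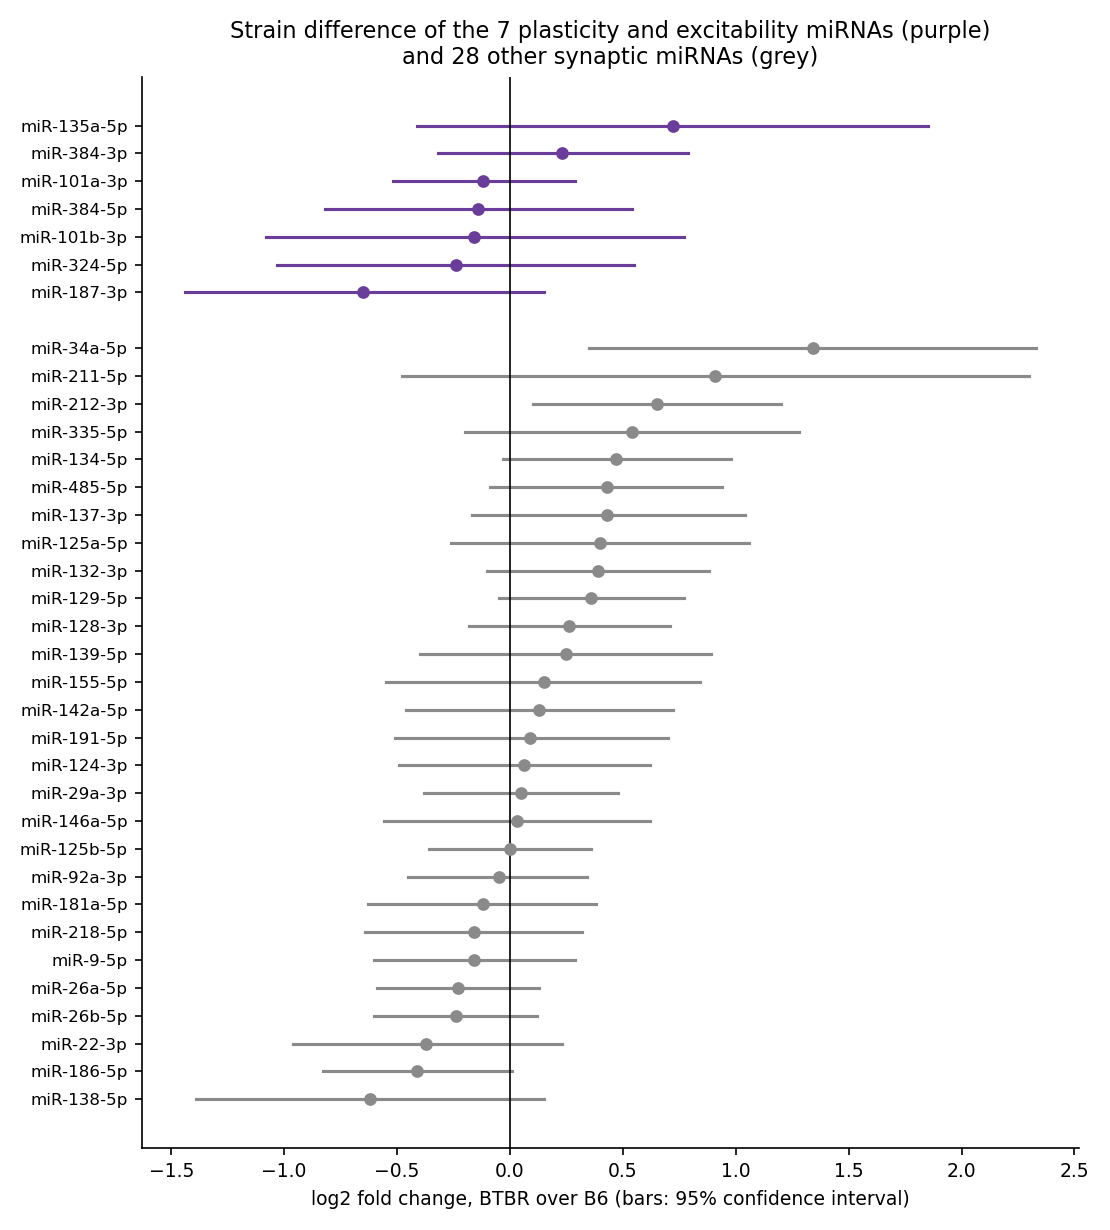
Log2 fold change of BTBR over B6 mice with its 95% confidence interval from edgeR's quasi-likelihood fit, for the 7 miRNAs (purple) and 28 other synaptic miRNAs (grey), each set sorted by size. All 7 purple intervals cross 0, and of the grey ones those of miR-34a-5p and miR-212-3p do not.

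The precision differed among the 7. The confidence intervals ran from −0.52 to 0.29 for miR-101a-3p to −0.41 to 1.85 for miR-135a-5p. For miR-101a-3p, miR-384-5p and miR-384-3p a change of 1 log2 unit in either direction lies outside the interval. For miR-135a-5p a rise of 1 log2 unit in BTBR mice lies within it and such a fall does not. For miR-324-5p, miR-101b-3p and miR-187-3p a fall of 1 log2 unit lies within it and such a rise does not. A p above the threshold does not show that the strains are alike in these miRNAs.

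**Figure D5:**
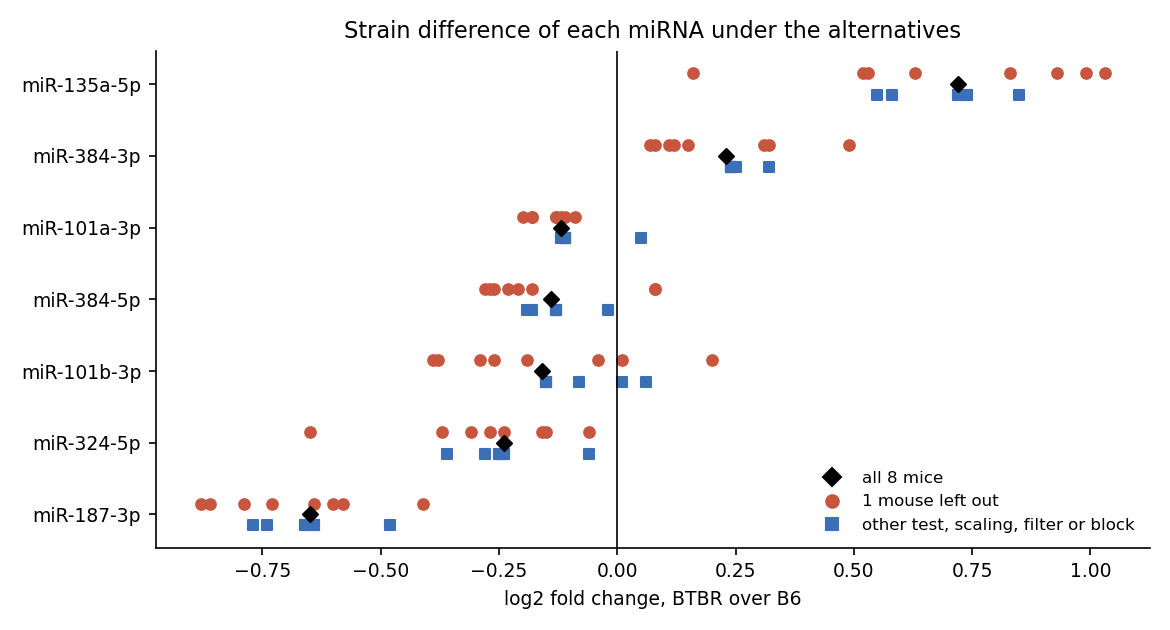
Log2 fold change of BTBR over B6 for each miRNA with all 8 mice (black diamonds), with 1 mouse left out (red circles) and under another test, scaling, filter or the replicate block (blue squares). miR-135a-5p and miR-384-3p stay above 0 and miR-324-5p and miR-187-3p below 0 in all 15 alternatives, while miR-384-5p, miR-101a-3p and miR-101b-3p have values on both sides.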

How the data were processed

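Total RNA from single mouse hippocampi was made into libraries with the TruSeq Small RNA kit and sequenced on a NextSeq500. The authors checked reads with FastQC 0.11.2, removed adapters, mapped with sRNAbench (Bowtie) to GRCm38 and assigned reads lying within miRBase v21 annotations. The deposited values are whole-number counts per miRNA, not normalized and without molecular identifiers. A count table in the supplement of the study gives fractions for some of these miRNAs (among them miR-135a-5p in 1 library, miR-30a-5p, miR-30d-5p and miR-30e-5p), so that their deposited counts appear to be rounded and may hold shared reads. The smallest count is 1, so a miRNA absent from any library is not among those analysed here.

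The counts were normalized by TMM and tested with edgeR 4.0.16 (glmQLFit and glmQLFTest, no covariates, no filter) in R 4.3.3, with Benjamini-Hochberg adjustment over 422 miRNAs and the threshold of 0.1 that the study used. Standard errors (SE) were the log2 fold change divided by the square root of F. Exact permutation tests used log2(CPM + 0.5), or log2 ratios of counts + 0.5, and SciPy 1.17.1. Alternatives used DESeq2 1.42.0, limma 3.58.1 and other settings, and steps were tested on simulated data. Figures were drawn with matplotlib 3.10.9. Within strains, all pairs of libraries differed beyond sampling noise, and each mouse is 1 replicate.

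Named are all members with counts, other products of their hairpins, miRNAs sharing a seed, the 3 most correlated with each member, and the 3 with the smallest p of the list of other synaptic miRNAs. miR-30b-5p, miR-30d-5p, miR-30e-3p, miR-129-5p, miR-26a-5p, miR-26b-5p and the hairpins of BTBR 2 are not covered by that rule and were chosen once their values were known. The neuron markers miR-124-3p, miR-9-5p and miR-128-3p, and miR-132-3p, are also outside it and are named without values of their own. The members and lists were chosen with earlier results of these data known. Sequences come from RefSeq, and host genes from GENCODE M21.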

Additional observations from a re-analysis of the deposited data

Results flagged for a closer look

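In 20 groups of 4 mice (7 levels and 3 ratios in each strain), the gap of the highest or lowest mouse to its neighbour was divided by the range of the group and compared with Dixon's 95% critical value for 4 values, which chance exceeds in about 1 group of 20. It was exceeded in 3. The log2 ratio of miR-384-5p to miR-384-3p in B6 1 gave 0.901: its ratio of 5.79 lay above 4.84 to 4.92 in the other B6 mice, which were very close together. The log2 ratio of miR-384-5p to the miR-30 5p arms in B6 2 gave 0.894, with a ratio of 0.103 against 0.0649 to 0.0682. The log2 level of miR-384-5p in BTBR 2 gave 0.854, with 263 CPM against 637 to 741 CPM in the other BTBR mice. All 3 involve miR-384-5p, and these values share that miRNA's counts.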

How the results depend on the processing

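None of the 7 members passed the threshold in any alternative run (DESeq2's Wald test, limma-voom, median-of-ratios or library-size scaling, a low-count filter, identical miRNAs kept once, the replicate block, a threshold of 0.05, and each mouse left out in turn). Only 1, miR-187-3p, had an unadjusted p under 0.05, in edgeR without BTBR 2. Over all 422 miRNAs the count of 7 became 21 with DESeq2, 4 with library size only, 4 at a threshold of 0.05 and 3 with the replicate block, and lay between 3 and 13 with 1 mouse left out. It was 3 without BTBR 3 or BTBR 4, 4 without BTBR 1 and 13 without B6 2. For the list of other synaptic miRNAs the count of 0 became 1 with DESeq2, and 0 to 1 with 1 mouse left out. The labels give replicate numbers but no pairing of the mice. Deviations of same-numbered mice correlated at 0.0516, −0.0686, −0.151 and −0.146, against −0.280 to 0.212 for mice with different numbers. Such values cannot show whether the mice were handled in pairs. The block changed no call among the members. Log2 fold changes turned sign for miR-384-5p (0.08 without B6 2 or BTBR 2), miR-101a-3p (0.05 with library size only) and miR-101b-3p (0.01 with limma-voom or without BTBR 2, 0.06 with library size only, 0.20 without B6 1), over ranges with 1 mouse left out of −0.28 to 0.08, −0.20 to −0.09 and −0.39 to 0.20. Log2 level differences turned sign for miR-384-5p (0.13 without BTBR 2), miR-101a-3p (0.044 with library size only) and miR-101b-3p (0.064 with library size only, 0.23 without B6 1, 0.01 without BTBR 1, 0.15 without BTBR 2), and the lowest with 1 mouse left out were −0.365 for miR-384-5p and −0.423 for miR-101b-3p. With 1 mouse left out, the log2 ratio difference of miR-101a-3p to miR-101b-3p ran from −0.28 to 0.21 (0.21 without B6 2, 0.15 without BTBR 3, 0.21 without BTBR 4), that of miR-384-5p to miR-30 from −0.31 to 0.079 (0.008 without B6 2, 0.079 without BTBR 2) and that of the miR-384 arms from −0.71 to 0.00. The cause of these changes was not tested. The lowest counts, 34 to 41 reads in BTBR 2, limit miR-101b-3p, miR-135a-5p and miR-324-5p.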
